A study of Drosophila melanogaster with 12 samples.

Results

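Of the 24134 genes listed in the deposited table, 4 that are annotated as relatives of the dioxygenases of carnitine synthesis were followed across all samples: CG4335, CG5321, CG10814 and CG14630. They were chosen by name, because these paralogs changed in opposite directions in the fat bodies of dERR mutant larvae, so their difference between mutant and control fat bodies is described here without a test. The rule had no threshold, so there were no genes just inside or just outside it. All 4 genes were among the 10069 genes whose mean reached the minimum level in at least 1 group. dERR is the single estrogen-related receptor of Drosophila melanogaster, a nuclear receptor known for its control of carbohydrate and lipid metabolism in growing larvae. The study measured poly-A RNA by RNA-seq in second-instar (L2) larvae. Fat bodies dissected from dERR1/2 mutants, which carried a pair of different mutant alleles, were set beside fat bodies of dERR1/+ controls, and whole larvae of the same genotypes were measured as well. The controls were heterozygotes that also carried the dERR1 allele, so both genotypes share it, and neither group is wild type. Each of the 4 groups had 3 samples, and the larvae were raised at 25 °C for 60 h according to the sample records, while the methods of the study give a somewhat later age. The methods describe the dissected samples of a genotype as technical replicates and do not state the kind of replicate for the whole larvae. Every p-value below therefore measures the spread between the samples that entered its test, which may be technical.

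Carnitine carries long-chain fatty acids across the inner mitochondrial membrane, and its supply is needed for their β-oxidation. In mammals it is made from trimethyllysine, a breakdown product of methylated proteins. The pathway opens with trimethyllysine hydroxylase (TMLHE) and closes with γ-butyrobetaine hydroxylase (BBOX), which makes carnitine itself, and both are iron-dependent enzymes that use 2-oxoglutarate and oxygen. The larval fat body, in which these genes were followed, is the fly's organ of fat storage and combines functions of mammalian adipose tissue and liver.

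The values are regularized log2 values (rlog), a scale on which the differences of low genes are drawn toward 0, so a difference of 1 stands for about a 2-fold change. Read depth is not known from such values. The medians over the genes tested lay between 7.04 and 7.16 in the fat body samples and between 7.95 and 8.0 in the whole larvae. Of the targeted gene, ERR itself, the level was 8.88 ± 0.51 (SD, n = 3) in control fat bodies and 8.35 ± 0.08 in mutant fat bodies, a difference of -0.53 that did not pass the test (limma, adjusted p = 0.095), and without control fat body 7 it was -0.83 (adjusted p = 0.00065). In whole larvae the ERR level differed by -0.14 (adjusted p = 0.96), and the samples of the 2 genotypes overlapped in both tissues. The 5 fat body markers (apolpp, Apoltp, FASN1, plin1 and AkhR) were present in every group, with summed levels of 19.1 to 19.6 in fat bodies of both genotypes and 16.5 to 16.9 in whole larvae. The single markers were less even. From control to mutant fat bodies, mean apolpp went from 18.66 to 18.34 and Apoltp from 14.92 to 14.90. FASN1 went from 17.43 to 18.21, plin1 from 14.24 to 14.85 and AkhR from 10.75 to 11.97. None of the 7 midgut and 4 Malpighian tubule markers reached the minimum level in either fat body group. All 6 muscle markers, 3 of the 4 hemocyte markers and 2 of the 4 neuron markers reached it in both. The summed level of the salivary gland markers was 7.79 in mutant fat body 4, against 2.58 to 4.64 in the other fat bodies. That of the germ line markers ran from 1.04 in mutant fat body 2 to 8.10 in control fat body 7. Control fat body 7 stood apart from the other fat bodies: its summed level of the 6 muscle markers was 10.97, against 8.82 to 9.54 in the other 5 fat bodies, and limma gave it the lowest weight of all 12 samples (0.25). In such bulk samples, fewer cells of a type and less RNA per cell cannot be told apart.

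**Figure D1:**
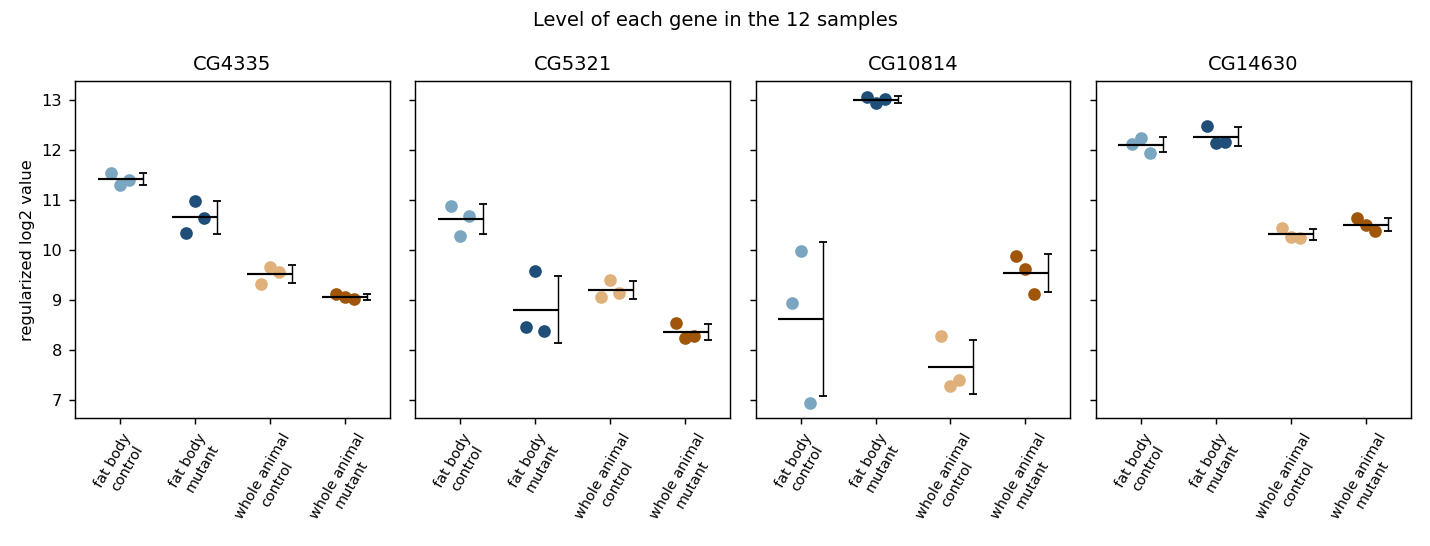
Regularized log2 value (vertical axis) of CG4335, CG5321, CG10814 and CG14630 in each of the 12 samples, by group. Points are samples, horizontal bars are group means and error bars are 1 SD (n = 3). CG10814 lies at 12.93 to 13.06 in the mutant fat bodies and at 6.94 to 9.97 in the control fat bodies, and CG5321 and CG4335 lie lower in mutants than in controls in both tissues.

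CG4335 (FBgn0038795) carries the RefSeq symbol Tmlh and is annotated as the enzyme of the first step, trimethyllysine hydroxylase. It lies on chromosome 3R at 20406615 to 20407871 on the minus strand (BDGP6.54), as 2 exons inside an intron of Gfrl, with which it shares no exonic base. Its level in the control fat bodies was 11.54 in sample 5, 11.31 in sample 6 and 11.39 in sample 7, and in the mutant fat bodies it was 10.33 in sample 1, 10.98 in sample 2 and 10.63 in sample 4. The highest mutant sample was thus 0.33 below the lowest control sample, and the means differed by -0.76, a 1.70-fold lower level in mutants. In whole larvae its level was 9.32, 9.67 and 9.55 in controls 1 to 3 and 9.12, 9.05 and 9.01 in mutants 1 to 3, again with no overlap. The spread between mutant whole larvae was small (SD 0.06). The difference was -0.45 ± 0.15 (SE), with a 95% interval of -0.78 to -0.13. This SE and interval, and those given below, come from a limma model of all 12 samples, fat bodies included. The intervals are not adjusted for the number of genes tested. Gfrl, the gene around it, differed by -0.05 in fat bodies (adjusted p = 0.94) and by -0.29 in whole larvae (adjusted p = 0.94).

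CG5321 (FBgn0030575) and CG10814 (FBgn0033830) are both annotated as γ-butyrobetaine hydroxylases, the enzyme of the last step, and they differed between the genotypes in opposite directions. CG5321 lies on the X chromosome at 14679568 to 14681418 on the plus strand. Its level was 10.87, 10.28 and 10.68 in control fat bodies 5, 6 and 7 and 8.47, 9.58 and 8.37 in mutant fat bodies 1, 2 and 4. All mutant samples were below all control samples, although mutant 2 lay more than 1 log2 unit above the other mutants, and the means differed by -1.80 (3.49-fold lower in mutants). This was the 314th difference of the 10069 genes tested, counted from the most negative. In whole larvae CG5321 was at 9.06, 9.39 and 9.14 in controls and at 8.55, 8.24 and 8.29 in mutants. These groups did not overlap either, and the difference was -0.84 ± 0.28 (SE, 95% interval -1.46 to -0.22). The next protein-coding genes on its 2 sides, NetA and NetB, which encode netrin guidance cues, were under the minimum level in both fat body groups, so no difference is given for them.

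CG10814 lies on chromosome 2R at 13375975 to 13377731 on the minus strand and is annotated with 1 transcript, 21475 and 11763 bases away from the next protein-coding genes on its 2 sides, which did not reach the minimum level in any group. Its level was 8.93, 9.97 and 6.94 in control fat bodies 5, 6 and 7 and 13.06, 12.93 and 13.01 in mutant fat bodies 1, 2 and 4. The control samples were widely spread (SD 1.54) while the mutant samples lay close together (SD 0.07), and the lowest mutant was 2.96 above the highest control. The means differed by 4.39 (20.9-fold higher in mutants), the 50th highest of the 10069 differences. Without control fat body 7, the lowest sample, the difference was 3.55, and without control fat body 6, the highest, it was 5.07. In whole larvae CG10814 was at 8.27, 7.28 and 7.40 in controls and at 9.87, 9.61 and 9.12 in mutants. The groups again did not overlap, with a gap of 0.85, and the difference was 1.88 ± 0.60 (SE, 95% interval 0.56 to 3.21), a 3.69-fold higher level in mutants and the 57th highest difference of all genes tested.

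Markers of other cell types varied among the fat bodies in which CG10814 varied. The summed level of the 3 oenocyte markers (FASN2, FASN3 and Cyp4g1) was 9.24, 10.09 and 8.34 in control fat bodies 5, 6 and 7, which is the order of CG10814 in those samples. In mutant fat bodies 1, 2 and 4, where CG10814 hardly varied, this sum was 10.76, 9.16 and 10.47, and Cyp4g1, the defining oenocyte gene of the list, was under the minimum level in both fat body groups. FASN3 was also under the minimum level in control fat bodies (mean 2.37, against 9.20 for FASN2). The oenocyte sum there was therefore in effect the level of FASN2 alone. The muscle sum was highest in control fat body 7, where CG10814 was lowest. In whole larvae the summed level of the 7 midgut markers had a median of 14.04 in controls and 14.79 in mutants, with no overlap. The 7 genes did not move together. From control to mutant means, alphaTry went from 9.71 to 10.77, betaTry from 11.83 to 13.16, epsilonTry from 11.20 to 12.59 and Mal-A1 from 11.40 to 12.26. The samples of the genotypes overlapped for Jon65Aiii (means 12.63 and 12.57), Amy-p (9.90 and 10.01) and lab (5.27 and 5.59). The part of oenocyte, muscle or midgut tissue in the CG10814 values was not tested.

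CG14630 (FBgn0014903) is annotated with synonyms of both enzymes (γ-BBH and Tmlhe), so its step is not settled by the annotation. It lies on the X chromosome at 1031496 to 1033165 on the plus strand, and 1312 of its 1358 exonic bases (96.6%) are also exonic in Rpp21, a gene on the same strand that encodes a ribonuclease P subunit, so how the reads were divided between the pair is uncertain. CG14630 was at 12.12, 12.24 and 11.94 in the control fat bodies and at 12.47, 12.14 and 12.16 in the mutant fat bodies. In whole larvae it was at 10.43, 10.25 and 10.24 in controls and at 10.63, 10.49 and 10.37 in mutants. The groups overlapped in both tissues. The means differed by 0.16 in fat bodies and by 0.19 ± 0.11 (SE) in whole larvae, with a 95% interval of -0.06 to 0.44. Rpp21 itself had a level of 7.32 ± 0.38 in control fat bodies and 7.26 ± 0.10 in mutant fat bodies (difference -0.07, adjusted p = 0.86), and in whole larvae it differed by 0.12 (adjusted p = 0.97).

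In the fat bodies the 2 genotypes therefore did not overlap for 3 of the 4 genes, 1 higher and 2 lower in mutants. Among all genes tested 14.2% were higher and 25.8% were lower without overlap (40% in either direction), and 22.3% passed the limma test (11.1% higher and 11.2% lower in mutants). Since the genes were chosen on this comparison, nothing is read from their count.

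The choice rested on the fat bodies. In the whole larvae, which are separate samples, the question was whether the 4 genes also differed between dERR mutants and controls. Whole larvae include the fat body, and earlier results of these data were known when the genes were chosen. A difference of the same sign there is therefore not independent of the choice. With all 12 samples in 1 limma model, 0 of the 4 genes passed the adjusted threshold of 0.05, against 3.29% of all genes tested, and 3 of the 4 had an unadjusted p under 0.05, against 11.1% of all genes. The adjusted p was 0.17 for CG10814, 0.20 for CG5321, 0.18 for CG4335 and 0.65 for CG14630. The groups did not overlap for CG10814, CG5321 and CG4335 (27.1% of all genes did not overlap, 13.7% higher and 13.5% lower in mutants). An exact two-sided permutation test gave p = 0.1 for each of these 3 genes, the smallest p that 3 against 3 samples allow, and p = 0.2 for CG14630. The sign of the difference was the same in fat bodies and in whole larvae for all 4 genes, as it was for 58.4% of all genes tested.

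The calls in whole larvae depended on how the spread was estimated. In the shared model the wide spread of CG10814 among control fat bodies and of CG5321 among mutant fat bodies enters the error of the whole-larva difference. With the whole larvae fitted alone, 3 of the 4 genes passed (7.05% of all genes): CG10814 rose (adjusted p = 0.0064), and CG5321 (adjusted p = 0.0057) and CG4335 (adjusted p = 0.041) fell, with the same log2 differences as above. With limma sample weights the same 3 genes passed (9.48% of all genes), with adjusted p-values of 0.0027, 0.0042 and 0.0069 in that order, and in a test against a log2 change of 1 (limma treat) 0 of the 4 passed (1.23% of all genes). Leaving out control fat body 7 alone made CG10814 pass (adjusted p = 0.0075; 4.33% of all genes), and leaving out mutant fat body 2 alone made CG5321 pass (adjusted p = 0.017; 3.21% of all genes). CG14630 did not pass in any fit that was run (adjusted p from 0.18 to 1.0).

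**Figure D2:**
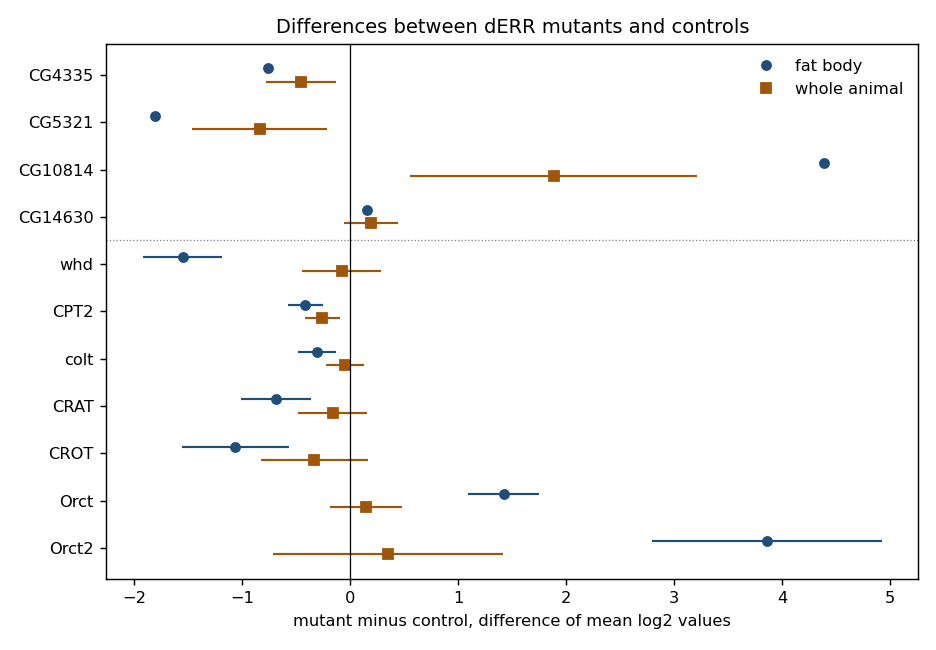
Difference of mean log2 values between dERR mutants and controls (horizontal axis) for the 4 dioxygenase genes, above the dotted line, and for the 7 measured genes of the carnitine shuttle, below it, in fat bodies (circles) and whole larvae (squares). Lines are 95% intervals from limma, left out for the 4 genes in fat bodies because they were chosen there. CG10814 is at 4.39 and 1.88, CG5321 at -1.80 and -0.84, and CG4335 at -0.76 and -0.45.

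For each gene that differed, the difference was smaller in whole larvae than in fat bodies: 1.88 against 4.39 for CG10814, -0.84 against -1.80 for CG5321 and -0.45 against -0.76 for CG4335. These gaps were not tested, because the fat body values chose the genes. The levels between tissues are likewise a description. In controls the levels of CG5321, CG4335 and CG14630 were 1.41, 1.90 and 1.80 higher in fat bodies than in whole larvae, without overlap (27.4% of all genes tested were higher in fat bodies without overlap), while CG10814 was 0.96 higher with overlapping samples, a value that was 0.28 without control fat body 6 and 1.80 without control fat body 7, and 1.86 with each sample centred on its median. In mutants the order changed. CG10814 was 3.47 higher in fat bodies, the 23rd highest of the 10069 differences between the mutant tissues, and CG4335 and CG14630 were 1.59 and 1.76 higher, without overlap (26.2% of all genes). CG5321 was 0.45 higher in mutant fat bodies than in mutant whole larvae, with overlapping samples. The median of all genes was -0.38 in the control comparison and -0.36 in the mutant one. With each sample centred on its median, the control differences of CG5321, CG4335 and CG14630 were 2.31, 2.80 and 2.70.

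Levels of different genes were compared per kilobase of exon. In the control fat bodies the order was CG14630 (11.66), CG4335 (11.15), CG5321 (9.78) and CG10814 (8.07), as mean log2 level per kb. CG14630 and CG4335 each lay above the next gene in every control fat body, whereas CG5321 and CG10814 lay within 0.02 of each other in control 6. In the mutant fat bodies CG10814 led with 12.46, followed by CG14630 (11.82), CG4335 (10.39) and CG5321 (7.97), and this order held in each of the 3 samples. In control whole larvae the order was that of the control fat bodies, with means of 9.87, 9.25, 8.36 and 7.11. In mutant whole larvae CG14630 came first (10.06) and CG5321 last (7.53), while CG10814 (8.99) and CG4335 (8.80) did not separate, since CG10814 was the lower of them in mutant 3.

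**Figure D3:**
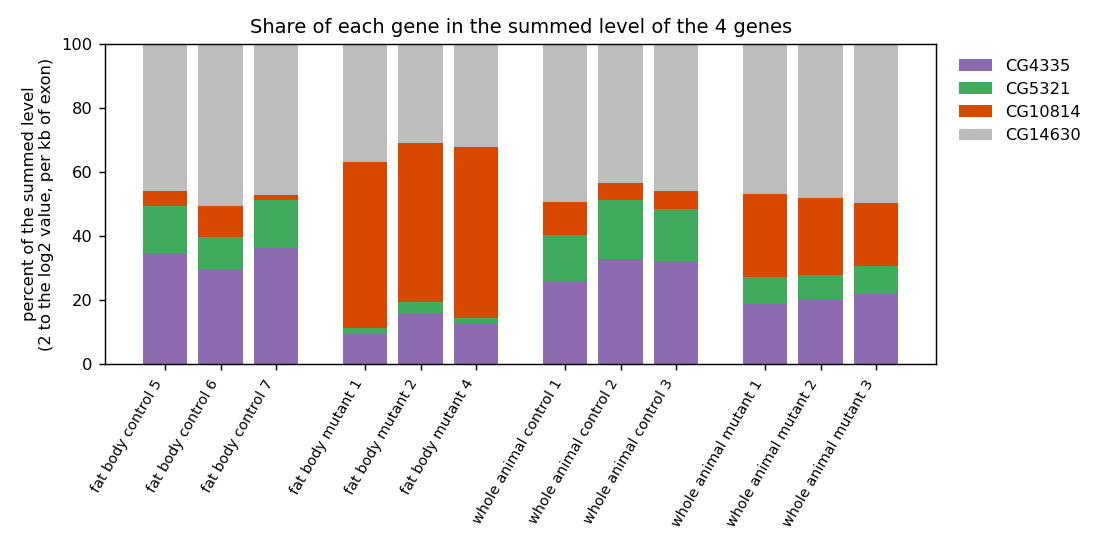
Share of each gene (percent, vertical axis) in the summed level of the 4 genes, taken as 2 to the power of the log2 value per kilobase of exon, in each of the 12 samples. CG10814 makes up 49.6% to 53.6% of the sum in mutant fat bodies and 1.37% to 9.76% in control fat bodies, and CG14630 makes up 43.5% to 50.4% of the sum in both control groups.

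Put as shares of the summed per-kilobase level of the 4 genes, CG10814 was 5.26% ± 4.23 (SD, n = 3) of the sum in control fat bodies and 51.7% ± 2.03 in mutant fat bodies. CG5321, its counterpart at the last step, was 13.2% ± 2.87 and 2.50% ± 1.29, and CG4335, the first-step gene, was 33.7% ± 3.38 and 12.6% ± 3.06. In whole larvae the share of CG10814 was 7.13% ± 2.75 in controls and 23.2% ± 3.37 in mutants, that of CG5321 was 16.4% ± 1.88 and 8.36% ± 0.62, and that of CG4335 was 30.4% ± 3.82 and 20.2% ± 1.60. CG14630 held 47.8% ± 2.35 and 33.3% ± 3.25 in fat bodies and 46.2% ± 2.85 and 48.2% ± 1.41 in whole larvae. The sum itself was 12.73 ± 0.12 on the log2 scale in control fat bodies and 13.41 ± 0.05 in mutant fat bodies, and 10.98 ± 0.04 and 11.11 ± 0.17 in control and mutant whole larvae, where the samples overlapped. With CG14630 left out because of its overlap with Rpp21, CG10814 was 10.3% and 77.6% of the remaining sum in control and mutant fat bodies and 13.4% and 44.7% in control and mutant whole larvae.

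The order of the pair annotated for the last step differed between the genotypes in both tissues. The level of CG10814 per kb minus that of CG5321 was -1.66, -0.02 and -3.45 in control fat bodies 5, 6 and 7 and 4.88, 3.64 and 4.92 in mutant fat bodies 1, 2 and 4. In whole larvae it was -0.50, -1.82 and -1.45 in controls and 1.62, 1.66 and 1.12 in mutants. In whole larvae, which are separate samples but include the fat body, CG5321 was thus the higher of the pair in every control and CG10814 in every mutant. The same order held in the fat bodies, by next to nothing in control fat body 6. There the genes were chosen because they changed in opposite directions, so the fat body values are a description.

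**Figure D4:**
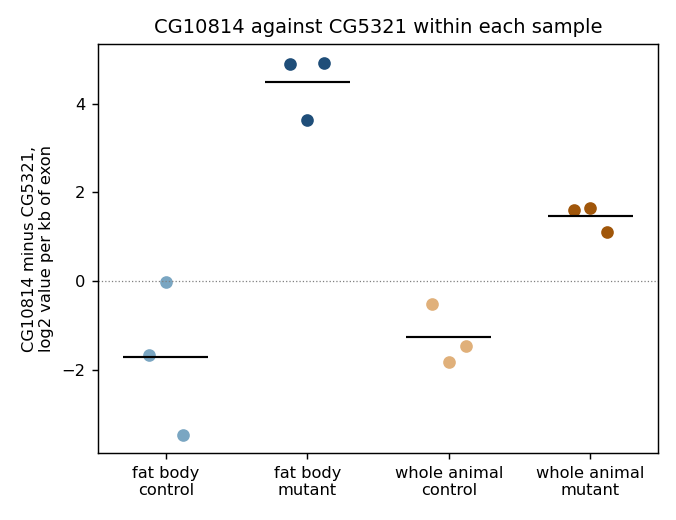
Log2 level of CG10814 per kilobase of exon minus that of CG5321 (vertical axis) in each sample, by group. Points are samples and bars are group means. All 6 control samples lie below 0, from -3.45 to -0.02, and all 6 mutant samples lie above it, from 1.12 to 4.92. The genes were chosen for opposite changes in the fat bodies. The whole larvae are separate samples, but they include the fat body.

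The genes with the profile most like each member over the 12 samples were found as those with the smallest root mean square difference after each gene's own mean was subtracted. For CG10814 they were CG1774 (0.40), CG15553 (0.70) and NaPi-III (0.77), beside a root mean square of 2.13 for CG10814 itself. CG1774 was first in each of the 14 other settings tried. It was 4.83 higher in mutant than in control fat bodies and 2.39 higher in mutant than in control whole larvae. For CG5321 the closest were CG16704 (0.29), CG7322 (0.31) and Mdh1 (0.31), the last encoding the cytosolic malate dehydrogenase. For CG4335 they were CG5958 (0.16), CG34331 (0.19) and SPE (0.19), a protease that processes the Toll ligand spätzle. For CG14630 they were LKRSDH (0.14), which encodes the bifunctional first enzyme of lysine breakdown, CG11334 (0.15) and Rab9 (0.15), a small GTPase of endosomal transport. The other lists rest more on single libraries. None of the 3 genes named for CG5321 stayed among its closest 3 without mutant fat body 2, none of those named for CG4335 stayed without mutant fat body 1, and the first gene for CG14630 was first in 8 of the 14 settings. Among the members themselves, CG4335 and CG14630 were the closest pair (0.47) and CG10814 and CG5321 the most distant (2.61).

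The other genes of the carnitine pathway, which use carnitine or may carry it, were taken as a list of 8. In this list 7 genes were measured above the minimum level, and CG5265 was listed at 0 in all 12 samples. In fat bodies all 7 passed the limma test, 2 higher and 5 lower in mutants, with a median of -0.42 beside -0.07 for all genes. Of all genes tested 22.3% passed there, 11.1% higher and 11.2% lower in mutants. Orct2, which encodes an organic cation transporter of the family that in humans holds a carnitine importer, was at 8.07, 6.03 and 6.68 in control fat bodies 5, 6 and 7 and at 11.41, 11.08 and 9.86 in mutant fat bodies 1, 2 and 4. The groups did not overlap, and Orct2 rose by 3.86 ± 0.48 (SE, adjusted p = 0.00019). Its relative Orct went from 10.88, 10.66 and 10.58 to 12.45, 12.11 and 11.82, a rise of 1.42 ± 0.15 (adjusted p = 6.3e-05).

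The acyltransferases moved the other way. The gene whd, which encodes carnitine palmitoyltransferase 1, the enzyme that couples fatty acids to carnitine at the mitochondrial surface, was at 10.32, 9.74 and 9.91 in control fat bodies and at 8.52, 8.18 and 8.63 in mutant fat bodies. It fell by 1.55 ± 0.17 (adjusted p = 6.8e-05). CROT, which encodes carnitine octanoyltransferase, fell by 1.06 ± 0.22 (adjusted p = 0.0059), from 7.55 to 8.25 in controls to 6.55 to 7.26 in mutants, and did not pass with the fat bodies fitted alone (adjusted p = 0.057). The remaining 3 genes (CRAT, CPT2 and colt, the carnitine acetyltransferase, the inner membrane palmitoyltransferase and the carnitine carrier) fell by 0.31 to 0.69. The call of colt was lost with the fat bodies fitted alone (adjusted p = 0.081) and without the variance trend (adjusted p = 0.052). It was also lost without control fat body 5, mutant fat body 2 or mutant fat body 4 (adjusted p from 0.052 to 0.070). With the fat bodies fitted alone, 5 of the 7 genes passed. No share over all genes was taken for that fit, so nothing is read from this count. In a test against a log2 change of 1 (limma treat), Orct2 was the 1 gene of the list that passed in fat bodies (3.18% of all genes).

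In whole larvae 0 of these 7 genes passed the test (adjusted p from 0.11 to 0.99), against 3.29% of all genes. Of the 7, 1 had an unadjusted p under 0.05, against 11.1% of all genes. Their median difference was -0.08 beside 0.01 for all genes. CPT2, the gene with the lowest p, passed with limma sample weights and when mutant whole larva 1 was left out (adjusted p = 0.0012 and 0.030). The difference between the tissues was itself past the threshold (interaction term of the same model) for whd (adjusted p = 0.0030), Orct (adjusted p = 0.0040) and Orct2 (adjusted p = 0.0085). For CROT it was not (adjusted p = 0.20).

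The study set the 4 genes beside 21 other genes of fatty acid oxidation, a list chosen with these samples in view and partly shared with the shuttle list, so its direction is not independent evidence. In fat bodies 3 of the 21 were higher and 11 lower in mutants (11.1% and 11.2% of all genes), 7 did not pass, and the median was -0.34 beside -0.07 for all genes. Among those that did not pass, CG6295 and CG2772 were under the minimum level in both fat body groups and were kept only through the whole larvae. Their fat body values therefore do not show an unchanged level, although they enter the median. The largest differences were falls: yip2, a mitochondrial thiolase, fell by 4.38 ± 0.18 (adjusted p = 1.1e-07), Mcad, the medium-chain acyl-CoA dehydrogenase, fell by 3.25 ± 0.20 (adjusted p = 1.4e-06), and CG3902, another acyl-CoA dehydrogenase, fell by 2.57 ± 0.07 (adjusted p = 1.5e-08), with whd next. In whole larvae AcCoAS, which encodes acetyl-CoA synthetase, was the only one to pass (3.29% of all genes passed). It rose by 1.07 ± 0.17 (adjusted p = 0.0037), and the median of the list was -0.04. AcCoAS also rose in fat bodies, by 0.88 ± 0.17 (adjusted p = 0.0029). The count in whole larvae was 3 without mutant whole larva 1 and 2 without mutant fat body 2 (3.21% of all genes) or without mutant fat body 4. The yip2 difference of -0.73 in whole larvae (adjusted p = 0.065) passed in each of those fits (adjusted p from 0.022 to 0.039). No share over all genes was taken without mutant whole larva 1 or without mutant fat body 4, so nothing is read from those counts.

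Other dioxygenases that use iron and 2-oxoglutarate were taken as a list of 12, all at or above the minimum level in at least 1 group. In fat bodies 0 of them were higher and 2 were lower in mutants (11.1% and 11.2% of all genes). PH4alphaEFB, a collagen prolyl hydroxylase subunit, fell by 1.15 ± 0.14 (adjusted p = 0.00016) and Kdm2, a histone demethylase, fell by 0.65 ± 0.14 (adjusted p = 0.0057). Kdm2 did not pass with the fat bodies fitted alone (adjusted p = 0.051), and 5 genes of the list passed without mutant fat body 1. No share over all genes was taken for the fit without that sample, so nothing is read from the count of 5. The median of the list was -0.34 beside -0.07 for all genes. PH4alphaMP, among those that did not pass, was under the minimum level in both fat body groups (means -0.23 in controls and 0.66 in mutants). It was kept only through the whole larvae, so its fat body values do not show an unchanged level. In whole larvae 0 of the 12 passed (3.29% of all genes), with a median of -0.12 beside 0.01. An unadjusted p under 0.05 was found for 2 of them (11.1% of all genes): PH4alphaEFB (difference -0.34, adjusted p = 0.35), which passed with limma sample weights (adjusted p = 0.0077), and Phyhd1 (difference -0.54, adjusted p = 0.39), which was named after its value was seen.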

How the data were processed

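RNA-seq of fat bodies and whole larvae of both genotypes was quantified by the authors with Salmon 1.10.2 against the BDGP6 genome and summed to genes. The deposited table holds regularized log2 values that the authors made with DESeq2 1.42.0 over all samples, not counts, so depth and counting error cannot be recovered from it. It lists 24134 genes, and no column of values was left without a sample. Genes with a mean of at least 3.32 (log2 of 10) in at least 1 group were kept, and the 10069 kept genes were fitted with limma 3.58.1 (R 4.3.3) in a model with a mean for each group and a variance trend, with Benjamini-Hochberg adjustment over all kept genes. Differences are on the rlog scale, which understates changes of low genes. The script was tested on simulated data. Levels per kilobase used the exonic length in Ensembl's BDGP6.54 annotation, which also gave the positions; gene names came from the table and RefSeq. No sequences are shown.

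The members and lists were chosen with earlier results of these data known. Named genes were the 4 members, the 4 genes of each list with the largest fat body differences where they passed, and the 3 genes most like each member; neighbouring genes, the remaining shuttle genes, AcCoAS, Phyhd1 and the other genes with tissue differences were named after their values were seen. Alternatives changed the filter, the scaling, the variance model, the threshold and each sample in turn.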

Additional observations from a re-analysis of the deposited data

Results flagged for a closer look

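Of the 36 genes of the 3 lists above the minimum level, 14 differed between the tissues in how far mutants departed from controls, by the interaction term of the limma model (adjusted p under 0.05). The fat body difference minus the whole-larva difference was -1.47 for whd (adjusted p = 0.0030), 1.27 for Orct (adjusted p = 0.0040) and 3.51 for Orct2 (adjusted p = 0.0085) in the shuttle list. In the oxidation list it was -3.65 for yip2 (adjusted p = 2.5e-05), -2.80 for Mcad (adjusted p = 0.00021) and -2.44 for CG3902 (adjusted p = 8.4e-07), the gene with the lowest p. It was -1.09 for Echs1, -0.96 for scu, -0.69 for Mtpalpha and -0.57 for CG17597, and 0.61 for CG7461 and 0.66 for Acox57D-d (adjusted p from 0.00023 to 0.044). Among the other dioxygenases it was -0.81 for PH4alphaEFB (adjusted p = 0.025) and -0.71 for Kdm2 (adjusted p = 0.042). The interaction of CG4335, CG5321, CG10814 and CG14630 was not tested, because the fat body samples chose them. The study had already named β-oxidation genes, whd among them, that fell in mutant fat bodies without a significant change in whole larvae. The lists were chosen with earlier results known, so these interaction p-values are not independent evidence. No share over all genes was taken for the interaction, so nothing is read from the count of 14.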

How the results depend on the processing

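The whole-larva call of the members depended on the model. Of the 4 members, 0 passed in the model of all 12 samples, 3 passed with each tissue fitted alone (CG10814 1.88, CG5321 -0.84, CG4335 -0.45) and 3 with limma sample weights (1.85, -0.90 and -0.46). The labels number the whole larvae 1 to 3 in both genotypes. Deviations of same-numbered samples from their group means had correlations of -0.02, -0.05 and -0.13. With 3 samples a group such deviations depend on one another, so this does not settle whether same-numbered samples were handled together. No whole larva correlated best with its own number. The replicate number was also used as a block, in a limma fit of the whole larvae alone. There 2 members passed (6.01% of all genes), CG10814 at 1.88 (adjusted p = 0.0020) and CG5321 at -0.84 (adjusted p = 0.024). Without the block, 3 members passed in the whole larvae alone (7.05% of all genes). CG4335 was the member lost with the block (adjusted p = 0.092). In the same block fit, 2 genes of the oxidation list and 1 other dioxygenase passed. Fat body samples share no replicate number. When 1 sample was left out at a time, 0 to 1 members passed. The count was 1 without control fat body 7 (4.33% of all genes) and without mutant fat body 2 (3.21% of all genes). The whole-larva difference then ran from 1.70 to 2.19 for CG10814, from -0.93 to -0.74 for CG5321 and from -0.55 to -0.38 for CG4335.

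Fat body differences of the members kept their sign under every scaling, filter and weighting run, but that of CG14630, 0.16, was 0.32 with quantile scaling and 0.07 with sample weights. Left out in turn, samples gave 3.55 to 5.07 for CG10814, -2.19 to -1.59 for CG5321, -0.93 to -0.61 for CG4335 and 0.05 to 0.23 for CG14630. Centring each sample on its median raised the control tissue differences to 2.31 for CG5321, 2.80 for CG4335, 2.70 for CG14630 and 1.86 for CG10814 (1.80 with quantile scaling). Without CG14630 the share of CG10814 was 10.3%, 77.6%, 13.4% and 44.7% in control and mutant fat bodies and in control and mutant whole larvae. Left out in turn, samples of the group gave shares of 3.02% to 7.21% in control fat bodies.

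Among the lists, a test against a log2 change of 1 left 1 shuttle gene, 3 oxidation genes and 0 other dioxygenases in fat bodies (3.18% of all genes) and 0 oxidation genes in whole larvae (1.23% of all genes). With each tissue fitted alone, 5 of the 7 shuttle genes and 1 other dioxygenase passed in fat bodies. In whole larvae 2 other dioxygenases and 2 oxidation genes passed (7.05% of all genes). No share over all genes was taken for the fat bodies fitted alone, so nothing is read from the fat body counts. With sample weights, 1 shuttle gene, 5 oxidation genes and 2 other dioxygenases passed in whole larvae (9.48% of all genes), and with quantile scaling 2 oxidation genes. With 1 sample left out, 0 to 1 shuttle genes and 1 to 3 oxidation genes passed in whole larvae, and 2 to 5 other dioxygenases in fat bodies. No share over all genes was taken for quantile scaling or for most fits with 1 sample left out. Nothing is read from the counts of those fits. Differences near 0 changed sign: in whole larvae colt became 0.0099 with quantile scaling, and with 1 sample left out whd ran from -0.19 to 0.0045, Kdm2 from -0.045 to 0.19 and Rpp21 from -0.053 to 0.23, while Rpp21 in fat bodies ran from -0.28 to 0.052. With 3 samples a group and no counts, small differences of CG14630 and of the lists could not be resolved.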
